A study of Mus musculus with 6 samples.

Results

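The mitochondrial respiratory chain genes of resting mouse CD4 T cells were examined for a response to vasoactive intestinal peptide (VIP). They were taken as every gene whose name on the array begins with Nduf, Cox4 to Cox8, Atp5 or Uqcr, or is Sdha, Sdhb, Sdhc, Sdhd or Cycs. This gave 86 genes, of which 80 could be tested among 19224 tested on the array. By complex, 38 genes fell to complex I (36 tested), 4 to complex II (4 tested), 7 to complex III (7 tested), 19 to complex IV (15 tested) and 17 to complex V (17 tested), and Cycs stood alone. The name rule also takes in genes that are no subunit: the assembly factors Ndufaf1 and Ndufaf2, the associated factors Atp5s and Atp5sl, the supercomplex factor Cox7a2l, and Cox4nb, whose current symbol is Emc8.

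The VIP-treated group was 6 samples of resting splenic CD4 T cells from C57BL/6J mice, and the untreated group was 6 samples of the same cells without VIP. Per the labels' protocols, each sample pooled 5 to 10 spleens of males and females aged 6 to 32 weeks, and CD4 cells were taken with magnetic beads. The sources used here give neither the dose of VIP nor how long it was applied. Each of 6 Agilent arrays carried 1 VIP-treated and 1 untreated sample, labelled with the dyes Cy5 and Cy3. The VIP sample was the Cy5 one on replicates 1, 3 and 5, and the Cy3 one on replicates 2, 4 and 6, so a difference between dyes can be measured separately from the treatment.

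The respiratory chain moves electrons from NADH (complex I) and succinate (complex II) through ubiquinone to complex III, by cytochrome c to complex IV and to oxygen. Complexes I, III and IV pump protons, and complex V, the ATP synthase, uses the proton gradient to make ATP. Resting T cells draw on this pathway for most of their ATP, and naive cells shift towards glycolysis after activation. VIP acts on T cells through receptors that raise cyclic AMP, and cyclic AMP signalling reaches genes through CREB, which binds the cyclic AMP response element.

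The array probes are 60-base oligonucleotides, and a few are shown here because the values below turn on them. For the first set, which covers different dye effects, capitals mark runs of 3 or more G. Coordinates are on mm9, from the files, and the files give no exon or UTR annotation. Where a span in the files is far longer than the 60 bases of the probe, its letters do not lie next to each other in the genome.
Atp5b probe A_51_P207636, chr10:127522569-127522628, plus strand: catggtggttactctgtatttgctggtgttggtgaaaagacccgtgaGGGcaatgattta
Atp5b probe A_52_P553841, chr10:127521478-127522156, plus strand: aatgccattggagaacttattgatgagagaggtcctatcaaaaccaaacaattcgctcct
Uqcrh probe A_52_P541875, chr4:115742492-115742551, minus strand: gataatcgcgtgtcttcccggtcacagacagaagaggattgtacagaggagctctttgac
Ndufa10 probe A_51_P272123, chr1:94361039-94363996, minus strand: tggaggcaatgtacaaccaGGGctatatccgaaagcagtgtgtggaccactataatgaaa
Ndufb4 probe A_51_P434269, chr16:37647795-37649148, minus strand: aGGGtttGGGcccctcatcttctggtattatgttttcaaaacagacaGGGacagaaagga

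The probes of Ndufa11, the member with the lowest p for VIP, are shown because they overlap. Capitals mark the 50 bases they share.
Ndufa11 probe A_51_P279854, chr17:56857241-56857300, plus strand: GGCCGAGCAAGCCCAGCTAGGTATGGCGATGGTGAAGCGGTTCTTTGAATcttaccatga
Ndufa11 probe A_52_P13436, chr17:56857231-56857290, plus strand: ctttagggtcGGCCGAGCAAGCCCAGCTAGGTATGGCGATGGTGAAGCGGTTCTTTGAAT

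The arrays differed in ways that the treatment labels do not give. On replicate 3 the female transcript Xist had a VIP over untreated log2 ratio of -6.12, and on replicate 6 it was 2.03, with Y-linked transcripts moving the other way on each. The other 4 arrays had Xist ratios between -0.083 and 0.34. The VIP-treated and untreated pools of replicates 3 and 6 thus differed in sex-linked transcripts, and values without both arrays are given for the genes with the lowest p and for others whose ratio moved. All 7 CD4 T cell markers examined, among them Cd3e and Cd4, were well above background in both treatments on all 6 arrays, and 1 of them, Il7r, was called lower with VIP. Of 28 markers of other spleen cells, 25 were tested and 0 were called, with fitted log2 ratios from -0.13 to 0.18. The same background criterion was met by 2 of 2 CD8, 4 of 4 B cell and 4 of 5 macrophage and monocyte markers. It was met by 2 of 4 neutrophil, 2 of 4 erythroid and 1 of 3 platelet markers. For NK and dendritic cells it was 2 of 3 each. How pure the pools were was not tested. On replicate 6 the neutrophil transcripts S100a8 and S100a9 had log2 ratios of 0.87 and 1.56. The part of these markers in the results below was not tested.

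No respiratory chain gene passed the test for VIP. Of the 80 tested, 0 were called higher and 0 lower at a Benjamini-Hochberg adjusted p under 0.05 in the limma model, while 3.08% of all genes tested were called. At an unadjusted p under 0.05 the model picked 9 of the 80 (11.25%), 4 higher and 5 lower, against 16.7% of all genes tested. The median fitted log2 ratio over the 80 was 0.0020 and their range was -0.19 to 0.19, with 41 above and 39 below 0. The median over all 19224 genes was -0.0047. The median size of the ratio, sign ignored, was 0.033 for the respiratory chain genes and 0.048 for all genes. In pooled samples of cells, fewer cells of a type and less RNA per cell cannot be told apart.

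The measurement was narrow enough to bound most of these genes. The median standard error of a respiratory chain ratio was 0.047 on the log2 scale. For 76 of the 80 genes the 95% interval lay wholly within a 1.25-fold change in either direction, as it did for 93.8% of all genes tested. The other 4 were Ndufb11, Ndufb5, Cox6a1 and Atp5g3. The widest of these reached from -0.19 to 0.38, for Ndufb5, a membrane-arm subunit of complex I. Its ratio was 1.02 on replicate 4, while the other arrays lay between -0.36 and 0.29. In normalized log2 intensity, the ranges of VIP-treated and untreated samples overlapped for 80 of 80 genes. These ranges ignore the pairing within arrays, and the share over all genes was not counted. The overlap therefore says little about these genes.

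**Figure D1:**
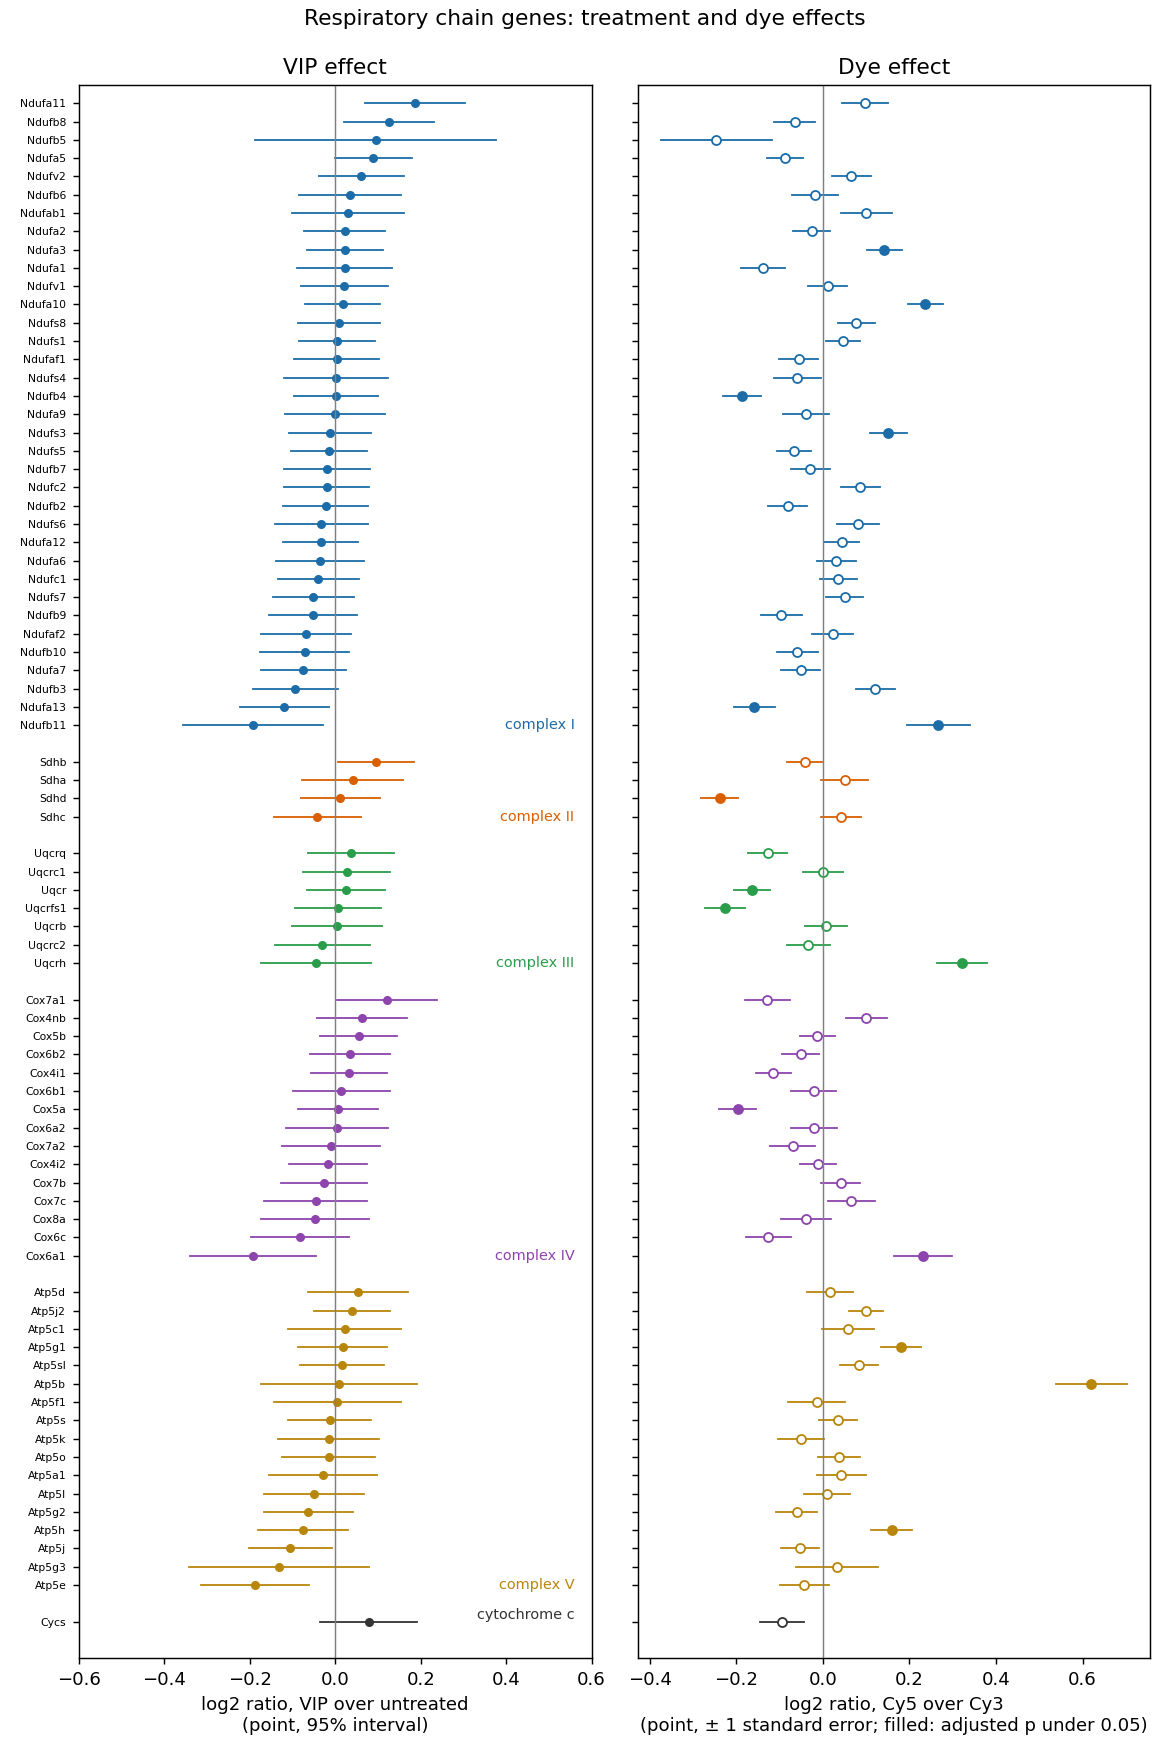
Left, the fitted log2 ratio of VIP-treated over untreated cells for each of 79 genes with its 95% interval. Right, the fitted log2 ratio of Cy5 over Cy3 for the same probes with 1 standard error, filled where the adjusted p is under 0.05. Genes are grouped by complex and sorted by the VIP ratio, which stays between -0.19 and 0.19, while the dye ratio reaches 0.62 for Atp5b.

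The treatment ratios of the complexes lay close together. The median fitted log2 ratio was -0.0062 for complex I, 0.026 for complex II, 0.0068 for complex III, 0.0044 for complex IV and -0.015 for complex V. The highest and lowest of these differ by 0.041. The medians of single arrays, with the dye effect left in, had standard deviations over the 6 arrays of 0.037 to 0.083, depending on the complex. With the fitted dye effect removed, they were 0.041, 0.035, 0.028, 0.027 and 0.050 for complexes I to V. These are spreads of single arrays, while the fitted ratios draw on all 6. With the dye effect left in, the complex II median exceeded the complex V median on 3 of 6 arrays. These were replicates 2, 4 and 6, which are those with VIP in Cy3. Averaging the arrays of a slide, 1 of each orientation, gave medians of 0.012, 0.078 and 0.052 for complex II. For complex V they were -0.054, 0.017 and -0.020, lower on each slide. Complex II rests on 4 genes and Cycs on 1, so their values describe few genes.

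Array by array, the medians split by dye orientation in complexes III, IV and V. The complex III median was -0.061, -0.028 and -0.047 where VIP samples carried Cy5, and 0.054, 0.088 and 0.15 where they carried Cy3. The complex IV median was -0.011, -0.023 and -0.062 with VIP in Cy5, and 0.059, 0.0040 and 0.072 with VIP in Cy3. In both complexes the sign turned with the dye orientation on all 6 arrays. Complex V split in the opposite direction, with -0.016, 0.072 and 0.018 where VIP samples carried Cy5, and -0.055, -0.048 and -0.11 where they carried Cy3. Complex I showed no such split, with -0.034, 0.046 and -0.028 in the first orientation and -0.011, -0.048 and 0.025 in the other. The medians of all genes tested also split, in the same direction as complex V but with values nearer 0. They were 0.0056, 0.014 and 0.0047 with VIP in Cy5, and -0.0099, -0.015 and -0.013 with VIP in Cy3. Each slide held 1 array of each orientation, and the slide medians over all 80 genes were -0.028, 0.0037 and 0.022.

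**Figure D2:**
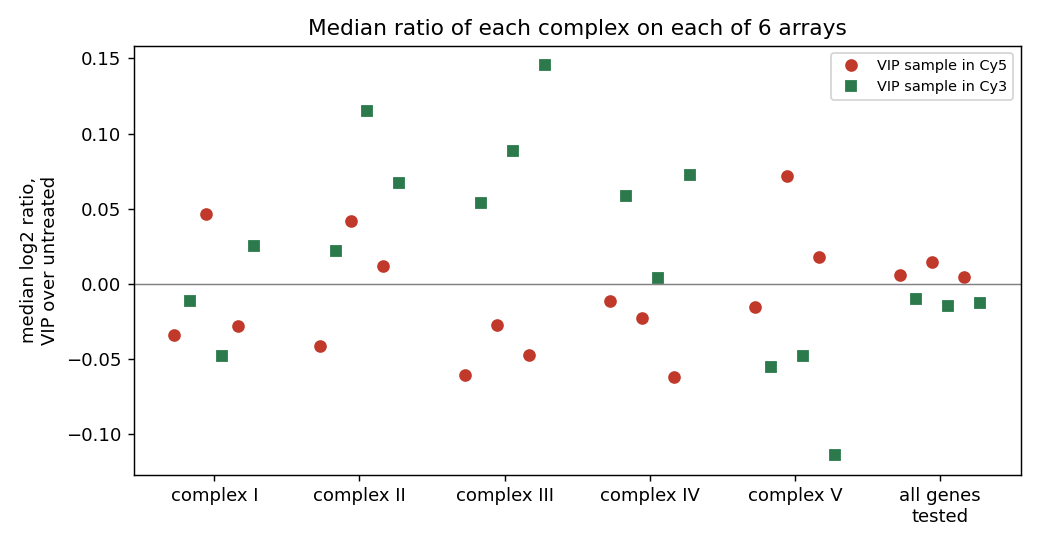
Median log2 ratio of VIP-treated over untreated cells for each complex and for all genes tested, one marker per array, in order of replicate 1 to 6. Circles are arrays with the VIP sample in Cy5 and squares those with it in Cy3. In complexes III and IV the circles lie below 0 and the squares above, and in complex V every square lies below every circle.

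Complex I is the largest complex and the entry point for NADH. Most of the core subunits Ndufs1, Ndufs3, Ndufs7, Ndufs8, Ndufv1 and Ndufv2 carry the flavin or iron-sulfur clusters. The fitted log2 ratios of these core subunits ran from -0.051 to 0.061, and 0 had an unadjusted p under 0.05. The 27 accessory subunits tested spread more widely, from -0.19 to 0.19. Ndufa11, a membrane-arm accessory subunit, had normalized log2 intensities of 10.15 (lowest), 10.44 (median) and 10.69 (highest) in VIP-treated samples, against 10.05, 10.24 and 10.44 in untreated samples. The ranges overlap, but within arrays the ratio was above 0 on 6 of 6: 0.35, 0.16, 0.067, 0.011, 0.44 and 0.094 on replicates 1 to 6. The fitted log2 ratio was 0.19 ± 0.053 (SE), or 1.14-fold, with a limma adjusted p of 0.095. Without replicate 3, one of the arrays with unequal Xist, it was 0.24 with an adjusted p of 0.031, and without both replicates 3 and 6 it was 0.24 with an adjusted p of 0.069. The other Ndufa11 probe gave 0.16 ± 0.045, but it shares 50 of its 60 bases with the first and is no separate reading of the transcript.

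Ndufb8, an accessory subunit of the membrane arm whose protein is widely used as a marker of complex I assembly, had log2 intensities of 14.07, 14.48 and 14.78 (lowest, median and highest) in VIP-treated samples, against 13.74, 14.41 and 14.66 in untreated samples. Its ratio was above 0 on 5 of 6 arrays, with a fitted value of 0.13 ± 0.048 (SE) and a limma adjusted p of 0.21. Without replicates 3 and 6 it was 0.075 (adjusted p 0.61). A further and much dimmer Ndufb8 probe had -0.055 ± 0.047, so the ratios of these probes lay on opposite sides of 0. Ndufb11, an X-linked membrane-arm subunit, was measured on 5 arrays, with ratios of -0.031, 0.13 and 0.12 where VIP samples carried Cy5 and -0.20 and -0.72 where they carried Cy3. Its fitted ratio was -0.19 ± 0.073 (SE) with a limma adjusted p of 0.22, and its dye ratio of 0.27 ± 0.073 was the larger of the effects. Without replicate 6 too few arrays with VIP in Cy3 were left to test it. Ndufa13, also known as GRIM-19, had -0.12 ± 0.047 for VIP and -0.16 ± 0.047 for dye, and its VIP ratio was -0.14 without replicates 3 and 6 (limma adjusted p 0.27). The assembly factors Ndufaf1 and Ndufaf2 had VIP log2 ratios of 0.0033 and -0.069.

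Complex II, or succinate dehydrogenase, also belongs to the tricarboxylic acid cycle. Sdhb, its iron-sulfur subunit, had array ratios of 0.016, 0.16, 0.10, 0.060, 0.042 and 0.19 on replicates 1 to 6. All 6 were above 0, and the slides gave 0.090, 0.082 and 0.11. The fitted log2 ratio was 0.096 ± 0.041 (SE) with a limma adjusted p of 0.26, and without replicates 3 and 6 it was 0.071 (adjusted p 0.60). Intensities overlapped, with 12.89, 12.96 and 13.31 in VIP-treated samples and 12.78, 12.89 and 13.21 in untreated samples (lowest, median and highest log2). The flavin subunit Sdha had 0.041 ± 0.054, and its further probe 0.045 ± 0.052. The membrane anchors Sdhc and Sdhd had -0.042 ± 0.046 and 0.012 ± 0.042.

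Sdhd is a case where the dye effect exceeded the treatment effect. Its VIP over untreated ratios were -0.20, -0.29 and -0.19 with VIP in Cy5 and 0.24, 0.17 and 0.33 with VIP in Cy3. The orientations did not overlap and their sign turned with the dye. The model gave a dye log2 ratio of -0.24 ± 0.042 (SE; limma adjusted p 0.0045), which leaves 0.012 for VIP.

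In complex III, which passes electrons from ubiquinol to cytochrome c, the 7 genes had VIP ratios from -0.045 to 0.037, and 0 reached an unadjusted p under 0.05 by the probe that stands for the gene. The lowest p belonged to Uqcrq (0.037 ± 0.045, SE) and Uqcrh (-0.045 ± 0.058, SE), both small subunits. The Rieske iron-sulfur protein Uqcrfs1 had 0.0068 ± 0.046, and the core proteins Uqcrc1 and Uqcrc2 had 0.027 ± 0.046 and -0.030 ± 0.050. The dye effects here ran in opposite directions. Uqcrh had a dye log2 ratio of 0.32 ± 0.058 and its other probe, whose sequence is given above, 0.30 ± 0.050, while Uqcrfs1 had -0.23 ± 0.046 and Uqcr (current symbol Uqcr11) had -0.16 ± 0.041. That other probe had a VIP ratio of -0.11 ± 0.050, with an unadjusted p of 0.045 and an adjusted p of 0.29 in the limma fit per probe. On single arrays the VIP over untreated ratio of the brighter Uqcrh probe ran from -0.49 to 0.52, and its sign followed the dye.

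Complex IV, cytochrome c oxidase, holds several subunits with tissue-specific forms. Of the widely expressed forms, Cox4i1, Cox6b1, Cox7a2 and Cox8a had VIP log2 ratios of 0.032, 0.014, -0.010 and -0.048, each smaller than its standard error. The array ratios of Cox6a1 were 0.11, -0.23 and 0.23 with VIP in Cy5, against -0.36, -0.27 and -0.64 with VIP in Cy3. The fitted VIP ratio was -0.19 ± 0.067 (SE; limma adjusted p 0.17), and the dye ratio was 0.23 ± 0.067. Values within slides were -0.13, -0.25 and -0.21, so each pair of opposite arrays gave a lower level with VIP. Without replicate 3 the VIP ratio was -0.13, without replicate 6 it was -0.14, and without both it was -0.072 (limma adjusted p 0.39, 0.40 and 0.61). Log2 intensities were 16.66, 17.26 and 17.49 in VIP-treated samples and 16.88, 17.39 and 17.88 in untreated samples (lowest, median and highest).

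The forms typical of other tissues gave weak signals or none. Cox7a1, a heart and skeletal muscle form, was well above background on all 6 arrays in both treatments and had a VIP ratio of 0.12 ± 0.053 (SE) with a limma adjusted p of 0.28, above 0 on 5 of 6 arrays. Its ratio was 0.46 on replicate 6, and without that array the fitted ratio was 0.069 (limma adjusted p 0.58), or 0.057 without replicates 3 and 6 (adjusted p 0.70). Cox6a2, another muscle form, and Cox6b2, a testis form, had 0.0044 ± 0.054 and 0.035 ± 0.042. Cox4i2, known mainly from lung, was well above background in 3 VIP-treated and 2 untreated samples and had -0.016 ± 0.042. Cox7b2, Cox8b and Cox8c were well above background in 0 of 6 VIP-treated and 0 of 6 untreated samples and were not tested. Ndufa4, Ndufa8 and Cox7a2l were well above background on every array, but the scanner software marked their spots as outliers on all but 1 array with VIP in Cy3, so they were not tested either. Ndufa4, counted with complex I by its name, is now regarded as a subunit of complex IV.

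**Figure D3:**
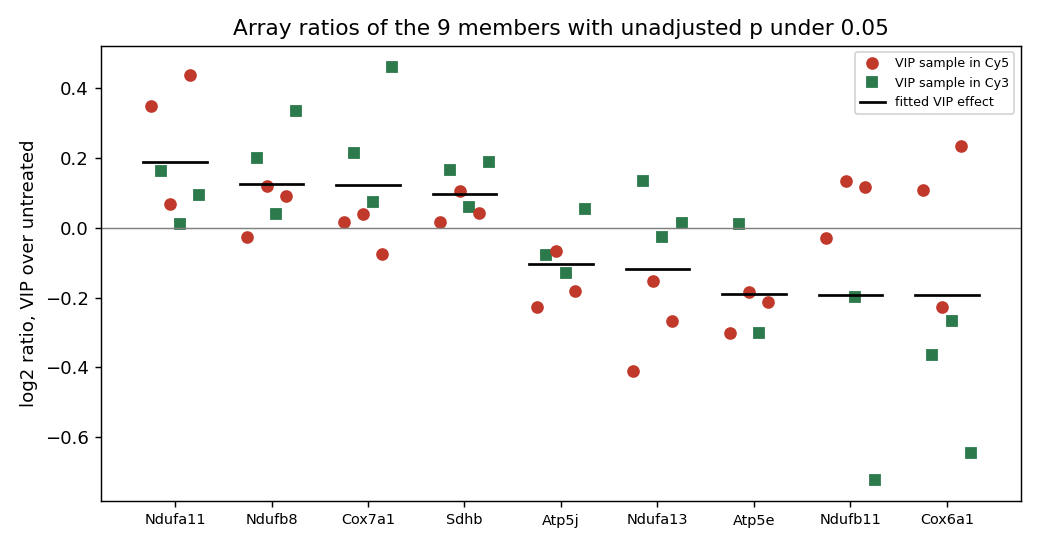
Log2 ratios of VIP-treated over untreated cells on single arrays for the 9 genes with an unadjusted p under 0.05, in order of replicate 1 to 6, with the fitted value as a line. Ndufa11 and Sdhb lie above 0 on 6 of 6 arrays. Ndufb11 and Cox6a1 are lower where the VIP sample carried Cy3.

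Complex V makes ATP with an F1 head (Atp5a1, Atp5b, Atp5c1, Atp5d and Atp5e) on a membrane part and stalks. Atp5e, the epsilon subunit of the head, had ratios of -0.30, 0.0096, -0.18, -0.30 and -0.21 on replicates 1 to 5. It was the complex V gene with the lowest p, at -0.19 ± 0.057 (SE; limma adjusted p 0.12), and its dye ratio was small at -0.043 ± 0.057. Log2 intensities were 15.12, 15.18 and 15.57 in VIP-treated samples, against 15.17, 15.46 and 15.85 in untreated samples. Atp5j, the F6 protein of the peripheral stalk, had -0.10 ± 0.044 with a limma adjusted p of 0.26, below 0 on 5 of 6 arrays. Without replicates 3 and 6 the ratios of Atp5e and Atp5j were -0.20 and -0.15 (limma adjusted p 0.18 for each). Of the 10 genes of the membrane part and stalks, 3 had ratios above 0 and 7 below, with a median of -0.033. Genes Atp5g1, Atp5g2 and Atp5g3 encode the same c-ring protein with different leader peptides, and their ratios were 0.017 ± 0.047, -0.063 ± 0.047 and -0.13 ± 0.095. The value of Atp5g3 rests on replicate 6, where its ratio was -0.72: without that array it was 0.0069. Without replicates 3 and 6 the 3 ratios were -0.0062, -0.11 and 0.0064.

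Atp5b, the catalytic beta subunit, had the largest dye effect of the 80 genes. With its brightest probe the VIP over untreated ratio was 0.57, 0.48 and 0.84 where VIP samples carried Cy5, and -0.98, -0.62 and -0.24 where they carried Cy3. The orientations were fully separated in opposite directions. The fitted dye log2 ratio was 0.62 ± 0.083 (SE; limma adjusted p 0.0013), or 1.54-fold, and the VIP ratio was 0.0092 ± 0.083, or -0.048 without replicates 3 and 6. The other probes of the gene, printed above, had dye ratios of -0.0075 and 0.084 and VIP ratios of 0.12 ± 0.047 and 0.10 ± 0.046. In the limma fit per probe, the unadjusted p of these VIP ratios was 0.027 and 0.052, and the adjusted p was 0.23 and 0.32. Each of these probes was read on 5 arrays, without replicate 2. The dye effect thus differed between probes of 1 gene. The bright probe had a standard error of 0.083 for VIP, against VIP ratios of 0.12 and 0.10 for the other probes.

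**Figure D4:**
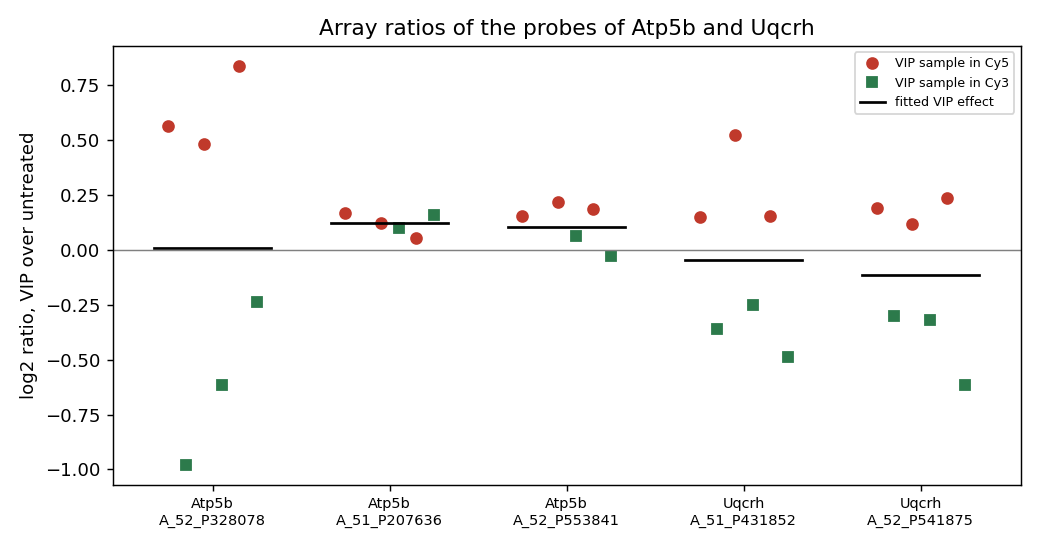
Log2 ratios of VIP-treated over untreated cells on single arrays for each probe of Atp5b and Uqcrh, from brightest to dimmest within a gene, with circles for VIP in Cy5, squares for VIP in Cy3 and a line for the fitted VIP ratio. The brightest Atp5b probe and both Uqcrh probes split by dye, with opposite signs. The dimmest Atp5b probe also split, by a smaller gap. Its ratios were 0.16, 0.22 and 0.19 with VIP in Cy5, and 0.063 and -0.026 with VIP in Cy3. The middle Atp5b probe did not split.

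Cycs encodes cytochrome c, the carrier between complexes III and IV and a trigger of apoptosis once released. Its brightest probe was measured on 5 arrays, with ratios of -0.028, 0.28, -0.044, 0.066 and 0.024 on replicates 1 to 5. The fitted VIP ratio was 0.078 ± 0.050 (SE; limma adjusted p 0.49) and the dye ratio -0.094 ± 0.050. The further probes gave VIP ratios of 0.16 ± 0.047 and 0.13 ± 0.046 (adjusted p 0.11 and 0.18 in the limma fit per probe), but they share 40 of their 60 bases and are not separate readings. Over the 25 genes with several tested probes, the VIP ratios of probes differed by at most 0.18, for Ndufb8, while the dye ratios differed by up to 0.63, for Atp5b.

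The dye effect was larger in size than the treatment effect for 56 of the 80 genes, and for 11670 of all 19224 genes tested. The median size was 0.060 for dye and 0.033 for VIP on the log2 scale. In the same limma fit, 9 of the 80 genes were called higher in Cy5, against 7.83% of all genes tested, and 6 were called higher in Cy3, against 7.92% of all genes tested. Those higher in Cy5 were Atp5b, Uqcrh, Ndufb11, Ndufa10, Cox6a1, Atp5g1, Atp5h, Ndufs3 and Ndufa3. Those higher in Cy3 were Sdhd, Uqcrfs1, Cox5a, Ndufb4, Uqcr and Ndufa13. The median dye ratio was -0.0049 over the respiratory chain genes and 0.013 over all genes, both close to 0 after loess normalization.

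Across all genes the dye effect moved with the brightness of the probe. Between a mean log2 intensity of 13 and 16, the median dye ratio of 1766 genes was -0.044, and 22.9% were called higher in Cy3. Above 16 the median of 363 genes was 0.32, and 62.0% were called higher in Cy5. Of the respiratory chain genes, 48 lay in the first range, with a median of -0.039, and 6 were called higher in Cy3. The 6 above 16 (Atp5b, Cox6a1, Uqcrh, Ndufb11, Atp5c1 and Atp5g3) had dye ratios above 0 in 6 of 6 cases, with a median of 0.25, and 4 were called higher in Cy5. The VIP ratio of those 6 had a median of -0.088, and that of all 363 genes above 16 was -0.075, while both were nearer 0 in the dimmer ranges. Over the 80 genes, VIP ratio and mean intensity had a Pearson correlation of -0.41, and over all 19224 genes it was -0.019. The sets were not matched for brightness: 5 of the 80, but 10131 of all genes tested, lay at or below an intensity of 9. These are descriptions across genes that share the same 6 arrays.

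**Figure D5:**
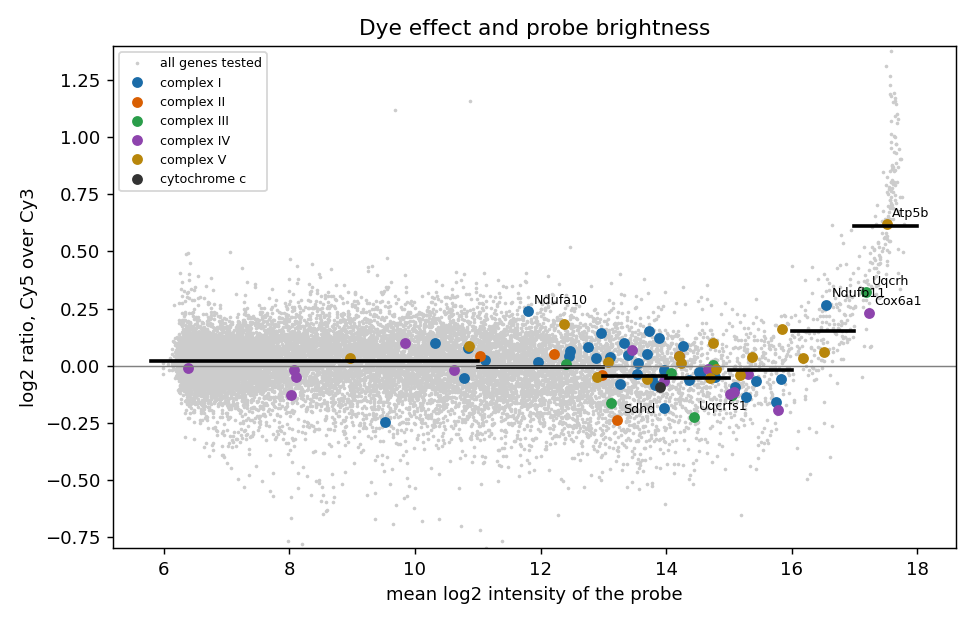
Fitted log2 ratio of Cy5 over Cy3 against the mean log2 intensity of the probe for 19224 genes (grey) and 80 respiratory chain genes (coloured by complex), with a black line for the median of all genes in each intensity range. Above an intensity of 17 the median of all genes is 0.61, and Atp5b, Uqcrh and Cox6a1 lie there.

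Probe sequence followed the dye effect only weakly. Over 110 probes of the respiratory chain, the number of runs of 3 or more G had a Pearson correlation of -0.27 with the dye ratio, and over all 27454 probes tested it was -0.12. The Ndufb4 probe printed above has 3 such runs and a dye ratio of -0.19, and the Uqcrh probe has 0 and a dye ratio of 0.30. The Ndufa10 probe, with 1 run, had 0.24. Numbers of A, C, G and T had correlations of 0.035, -0.075, 0.032 and 0.0037 with the dye ratio over the respiratory chain probes. Over all 27454 probes they were -0.041, 0.16, -0.10 and -0.015, with the other sign in each case.

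Promoters of the genes were examined for motifs of factors known to act on respiratory genes, in windows of 250 bases before to 50 bases after the transcription start from RefSeq (GRCm38.p6). Windows were found for 71 of the 86 genes by current symbol, and both strands were searched. The NRF1 motif GCGCANGCG was present for 21 genes (29.6%), against 7.03% of 27025 genes. The ETS motif CCGGAAG, bound by GABP, was present for 17 (23.9%), against 9.93%. The YY1 motif AAGATGGCG was present for 8 (11.3%), against 1.64%, and the ERR motif TCAAGGTCA for 2 (2.82%), against 0.466%. The cyclic AMP response element TGACGTCA was found for 5 genes (7.04%), against 2.03%, and these were Ndufa10, Ndufa11, Ndufb2, Uqcrfs1 and Cycs. Their VIP log2 ratios were 0.017, 0.19, -0.022, 0.0068 and 0.078, with a median of 0.017. The 20 tested genes with the NRF1 motif had a median VIP ratio of -0.015. A match in these letters is a description and not a site.

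Few genes of the other mitochondrial lists passed the test. Of 19 genes of the tricarboxylic acid cycle, 0 were called with VIP. Their median ratio was 0.047, and 15 had ratios above 0, against 9061 of all 19224 genes tested. Of 76 mitochondrial ribosomal proteins, 1 was called lower, Mrps28. Of 29 assembly factors and partners outside the name rule, 1 was called lower: Nubpl, which delivers iron-sulfur clusters to complex I. Of 20 regulators of mitochondrial biogenesis, 1 was called higher, Polg, the polymerase that copies mitochondrial DNA, and 1 lower, Tfb2m, a factor for mitochondrial transcription. Of 24 import genes, 15 carrier and oxidant defence genes and 14 proteasome core genes, 0 were called. Against these counts stands the 3.08% of all genes called. Ratios lay above 0 for 11 of the 15 carrier and oxidant defence genes, with a median of 0.061. They lay above 0 for 8 of the 24 import genes (median -0.022) and 8 of the 14 proteasome core genes (median 0.0075).

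Nubpl had VIP over untreated ratios of -0.37, -0.21, -0.061, -0.38, -0.26 and -0.46 on replicates 1 to 6, below 0 on 6 of 6. Its fitted log2 ratio was -0.29 ± 0.052 (SE; limma adjusted p 0.015), and without replicates 3 and 6 it was -0.30 with an adjusted p of 0.033. Polg had 0.24 ± 0.048 (SE; limma adjusted p 0.026), Tfb2m -0.21 ± 0.048 (adjusted p 0.043) and Mrps28 -0.23 ± 0.050 (adjusted p 0.035). Without replicates 3 and 6 these 3 were no longer called, with adjusted p of 0.14, 0.22 and 0.081. Leaving out single arrays ended the call of Polg, Tfb2m and Mrps28 in 5 of 6 cases each and that of Nubpl in 3 of 6, with the ratio keeping its sign. All 4 calls also ended with scanner-processed signals, with median centring, with no dye term, with channels as unpaired samples and in the authors' deposited table. Of 17 alternatives, 8 ended the call of Nubpl, 11 that of Polg, 13 that of Tfb2m and 12 that of Mrps28. For Nubpl the adjusted p was 0.13 with scanner-processed signals, 0.062 with median centring and 0.077 with no dye term.

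The mitochondrial DNA encodes further subunits, of which COX2 (complex IV) and CYTB (complex III) were tested. Their VIP log2 ratios were -0.13 ± 0.085 and 0.083 ± 0.053 (SE), and both were called higher in Cy5, with dye ratios of 0.41 and 0.26. Cytosolic ribosomal proteins, the brightest list examined, had a median intensity of 17.56 and a median dye ratio of 0.64, with 56 of 73 called higher in Cy5. Their median VIP ratio was -0.075, with 12 of the 73 above 0, and 0 were called. At an unadjusted p under 0.05 in the limma model, 1 was higher and 13 were lower, against 16.7% of all genes tested in either direction. A further 9 genes carry respiratory chain names today but had older names on the array, such as Ndufv3 and Uqcr10. Their VIP ratios ran from -0.080 to 0.11, and 0 were called.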

How the data were processed

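Transcripts of 6 VIP-treated and 6 untreated samples were measured on 6 Agilent arrays with both dyes. The deposited scanner tables give the intensity of each spot, read with Agilent Feature Extraction 9.5.1.1 per the file headers. The authors' deposited table holds 1 log10 ratio per spot, and positive values are higher with VIP. It equals the log10 ratio in the scanner tables once the sign is turned for arrays with VIP in Cy3, and served as an alternative only.

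Mean signals were corrected against median local background with normexp (offset 50) and normalized within arrays by loess in limma 3.58.1 (R 4.3.3). Control and outlier spots (1.93% to 8.96% per array) were left out, and repeated spots were averaged. Probes entered the test if well above background on at least 3 of 6 arrays in either treatment's channel and read on 2 or more arrays per dye orientation. The brightest probe stood for its gene. The limma model of the log2 ratio (VIP over untreated) had a dye term and empirical Bayes moderation, and p-values were adjusted by Benjamini-Hochberg over 19224 genes. Tests were 2-sided, and the number of arrays limits the precision. Errors are standard errors over the arrays on which the probe was read. These were fewer than 6 for some, such as 5 for Uqcrc2, CYTB and the dimmer Atp5b probes. Levels per sample come from loess followed by Aquantile scaling. The method was tested on simulated data.

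Names were updated through RefSeq (24844 of 41174 probes matched), while respiratory chain genes keep the name in the files. The members and gene lists were chosen with earlier results of these data known, so no p is given over a list. Genes named were those called, the 2 with the lowest p and those with the highest and lowest dye effect in each complex, complex II, Cycs, isoform groups, and up to 3 genes of each other list. Members named beyond these, for a called dye effect or an unadjusted p under 0.05, were chosen after their values were seen. Alternatives are given in the closing section. Values of 1 gene are not reported here.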

Additional observations from a re-analysis of the deposited data

Results flagged for a closer look

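Cox7a2, the widely expressed form of a complex IV subunit, had a log2 ratio of VIP-treated over untreated of 0.27 on replicate 2, while the other 5 arrays lay between -0.12 and 0.0067. The gap to the nearest array is large against the whole range of the 6. In all, 34 genes and medians were examined in this way and 1 stood out, and chance alone marks about 1 in 20. The cause was not tested.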

How the results depend on the processing

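The count of respiratory chain genes called lower with VIP stayed at 0 under all 18 alternatives, and that called higher stayed at 0 under 17. The exception was the fit without replicate 3, which called 1 (Ndufa11), so the range over single arrays left out was 0 to 1. The median VIP log2 ratio of all members lay between -0.018 and 0.011. No median of a complex moved by more than its standard deviation between arrays with the dye effect left in. Some alternatives called few genes of any kind, so a count of 0 says little there. Against 593 genes called over the whole array, 38 were called with scanner-processed signals, 41 in the authors' deposited table, 124 with no dye term, 308 with median centring and 4 with unpaired channels. Among 484 repeated VIP ratios of 29 named genes, 35 changed sign, all where the unadjusted p was above 0.05. Dye calls depended far more on the processing. With signals as processed by the scanner software, and in the authors' deposited table, 1 gene was called higher in Cy5 and 2 in Cy3. With median centring in place of loess, 77 were called higher in Cy5 and 1 in Cy3, and the median dye ratio was 0.75. With 12 channels as unpaired samples, 0 were called in either direction. Without replicates 3 and 6, chosen after seeing the data, 4 and 1 were called, and a loess span of 0.1, also chosen after seeing the data, gave 5 in Cy5 and 9 in Cy3. Leaving out single arrays gave 3 to 6 in Cy5 and 3 to 7 in Cy3. The causes were not tested. Fewer arrays also mean fewer genes tested. Leaving out the 5 genes that are no subunit changed neither the VIP and dye calls nor the counts at an unadjusted p under 0.05. Counts over all members fell with their number, and the dye effect was then larger than the treatment effect for 52 of 75.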
